A study of Mus musculus with 472 samples.

Results

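The Iroquois homeobox factors Irx1, Irx2, Irx3, Irx4, Irx5 and Irx6 were followed across single retinal ganglion cells (RGCs), the neurons whose axons carry visual signals from the eye to the brain. The 6 genes of the family were found by their symbols among the 55450 genes of the deposited table. The RGCs came from C57BL/6J mice aged 7 to 9 weeks and form 1 group, with no treatment or other genotype named. For each cell a patch pipette on the flat mount first recorded responses to spots of blue and green light and then drew out the content. Smart-seq2, which reads whole transcripts and has no molecular identifiers, was used for the RNA. The study set out to relate the genes of RGCs to their shape and light responses, and the recordings and shapes were not used here. The labels name no animal, so the cells count as 1 sample and no difference between cells was tested.

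Iroquois proteins are DNA-binding factors of the TALE homeodomain class, which is set apart by extra residues between helices of the homeodomain and which also holds the Meis, Pbx, Pknox and Tgif factors. The mouse genes lie in a pair of clusters that arose by duplication, one with Irx1, Irx2 and Irx4 and the other with Irx3, Irx5 and Irx6. Iroquois genes pattern the neural plate, heart and limb in the embryo. In the retina, Irx5 and Irx6 are known from cone bipolar cells, where Irx5 is needed for some OFF types to mature and Irx6 marks and shapes others, and several members are also known from ganglion cells.

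The 6 genes share one stretch of coding sequence closely, and reads that fall in it can be hard to assign between them. The stretch shown here encodes the end of the homeodomain with its recognition helix, taken from the transcripts of GENCODE mouse release 21 and read 5′ to 3′ on the coding strand. Capitals mark a base unlike the commonest base at that position among the 6 genes.
Irx1: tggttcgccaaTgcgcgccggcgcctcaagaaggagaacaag
Irx2: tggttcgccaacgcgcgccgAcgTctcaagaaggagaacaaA
Irx4: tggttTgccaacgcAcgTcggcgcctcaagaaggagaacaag
Irx3: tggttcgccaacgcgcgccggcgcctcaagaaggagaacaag
Irx5: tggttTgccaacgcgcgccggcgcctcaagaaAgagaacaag
Irx6: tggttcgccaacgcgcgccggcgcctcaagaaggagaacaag

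In the mm10 build the stretches lie in coding exons at chr13:71959992-71960033 on the minus strand for Irx1, chr13:72630811-72630852 on the plus strand for Irx2 and chr13:73267670-73267711 on the plus strand for Irx4. Those of the other cluster lie at chr8:91800496-91800537 on the minus strand for Irx3, chr8:92359774-92359815 on the plus strand for Irx5 and chr8:92677383-92677424 on the plus strand for Irx6. Of its bases, 34 were alike in all 6 genes, and Irx3 and Irx6 were identical throughout. Over a wider window that takes in most of the homeobox, identity between members ran from 83.1% to 91.01%. The longest run of bases shared exactly was 88, between Irx3 and Irx6, followed by 65 between Irx2 and Irx5 and 50 between Irx3 and Irx5. These shared runs are shorter than the 150-base reads. All values of the 6 genes in all cells were whole numbers, whereas 1.36% of the values in the table as a whole were not.

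The genes themselves lie on chromosomes 13 and 8. On chromosome 13 Irx1 spans 71957921 to 71963723 on the minus strand, Irx2 spans 72628820 to 72634198 on the plus strand, and Irx4 spans 73260479 to 73269608 on the plus strand. On chromosome 8 Irx3 spans 91798525 to 91802067 on the minus strand, Irx5 spans 92357625 to 92376286 on the plus strand, and Irx6 spans 92674288 to 92680956 on the plus strand.

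Depth was high for single cells, with a median of 5184792.5 gene counts, a lowest value of 58907 and a highest of 13004880. Levels are in CPM, counts scaled to 1000000 gene counts of the cell, and positive means 10 CPM or more. The median cell had 5554.5 positive genes. By library name the cells fall into 5 groups, here called runs, A, D and E by flow cell and B and C by order number. The names do not say whether the cells of B or of C were sequenced together. Run E has 19 cells, D has 59, C has 62, B has 98 and run A the rest. Their medians were 3024 to 6563 positive genes. As a check of the label, 95.6% of cells carried 6 or more of 12 pan-RGC genes. Among cells positive for an Iroquois gene this held for all but 1 cell, which was positive for Irx4. Slc17a6, the glutamate transporter of RGC vesicles, was positive in 96.6% to 100% of the cells of each member. Markers of other retinal cells were present too, and 31.99% of cells carried 3 or more of 8 bipolar markers, so their levels are given beside the results below.

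Irx6 was by far the most widespread member, Irx3, Irx4, Irx2 and Irx5 each appeared in a minority of cells, and Irx1 was nearly absent. Irx6 was positive in 32.4% of cells (exact 95% binomial interval 28.2% to 36.8%). Irx3 and Irx4 were each positive in 72 cells, or 15.3% (12.1% to 18.8%). Irx2 was positive in 59 cells, or 12.5% (9.65% to 15.8%), and Irx5 in 55 cells, or 11.7% (8.90% to 14.9%). Irx1 was positive in 3 cells, or 0.636% (0.131% to 1.85%). The interval of Irx6 lies above, and that of Irx1 below, all the others, while Irx2 to Irx5 overlap and their order is not resolved. The intervals hold counting error alone and no difference between animals.

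Levels differed widely between cells. Irx6 had at least 1 count in 57.2% of cells and was listed at 0 in the rest, its positive cells had a median of 59.3 CPM with quartiles of 31.5 and 112.3 CPM, and its highest cell had 523 CPM. Irx4 had a count in 27.1% of cells, with a median of 50.6 CPM and a highest value of 557 CPM among its positive cells. Irx3 had a count in 26.7% of cells, with a median of 29.6 CPM and a highest value of 590 CPM. Irx6 thus had the most cells at high level, and 43 of its cells reached 100 CPM, against 14 for Irx4 and 8 for Irx3. Irx2 had a median of 27.6 CPM and a highest value of 130.8 CPM, with 4 cells at 100 CPM or more. Irx5 had a median of 29.5 CPM and a highest value of 156.2 CPM, with 5 cells at 100 CPM or more. The highest cells of Irx2 and Irx5 were thus below those of the other common members, while the quartiles of Irx5, 17.2 and 53.96 CPM, lay close to the 15.5 and 53.4 CPM of Irx3. The 3 Irx1 cells had 122.1, 42.4 and 10.7 CPM, the last on 44 counts.

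Compared per length of exon, the members kept this order only in part. The mean over all cells was 8.38 CPM per kb for Irx6, 4.40 for Irx4, 3.23 for Irx3, 1.68 for Irx5, 1.59 for Irx2 and 0.167 for Irx1. Among positive cells alone the median was 19.4 CPM per kb for Irx4 and 17.6 for Irx6, against 10.7 for Irx3, 9.42 for Irx5 and 8.42 for Irx2. Irx4 was thus less widespread than Irx6, with a like median where it was positive. The number of cells listed at 0 or near the threshold also differed. Between 1 and 10 CPM lay 53 cells for Irx2, 43 for Irx6, 29 for Irx3, 28 for Irx5, 18 for Irx4 and 8 for Irx1. Lowering the threshold to 1 CPM thus adds the most cells for Irx2, and relative to its few positive cells the most for Irx1.

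**Figure D1:**
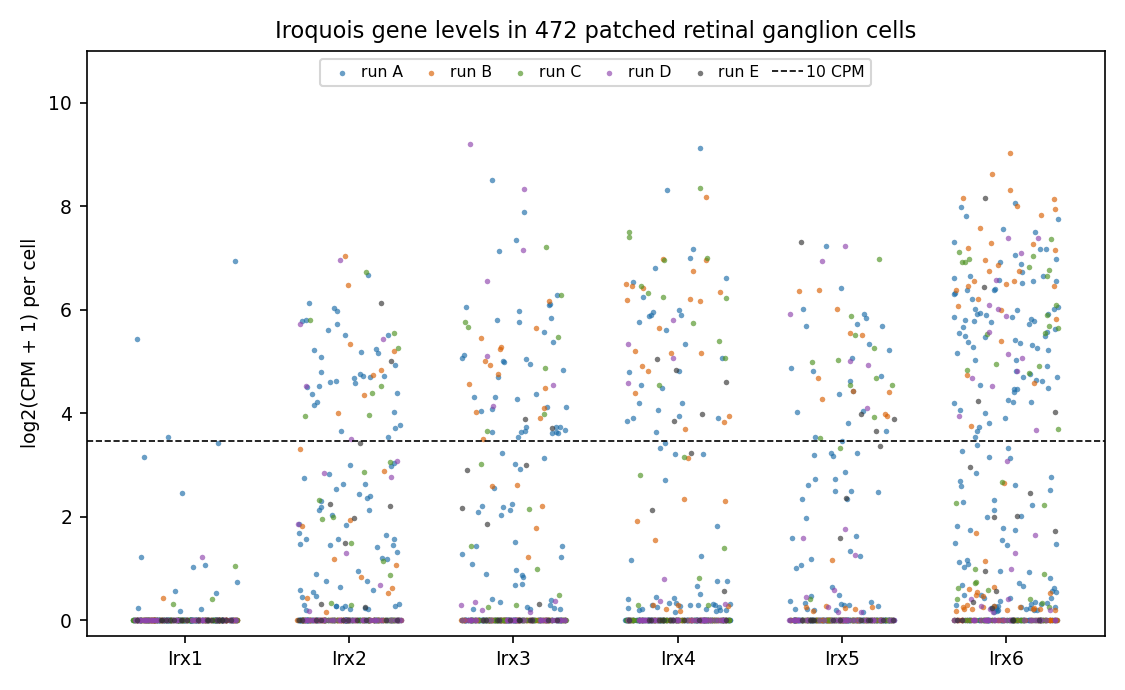
Level of each Iroquois gene in every cell, as log2(CPM + 1), with points coloured by run and a dashed line at 10 CPM. Irx6 has 32.4% of cells at or above the line and Irx1 has 3 cells, and every common member has positive cells in all 5 runs.

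The shares by run differed for some members. Irx6 was positive in 35.5%, 31.6%, 32.3%, 25.4% and 21.1% of cells in runs A to E. Irx4 was positive in 12.4% of cells in run A, 21.4% in B and 20.97% in C, but in 6.78% in D and 26.3% in the small run E. Irx2 was positive in 15.4% of cells in run A, and in 8.16% to 12.9% in the other runs. Irx3 ran from 10.5% to 17.5% and Irx5 from 9.83% to 21.1%. All 3 Irx1 cells came from run A. The runs hold unknown animals, so run and animal cannot be told apart.

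The share of every common member was higher in cells with more positive genes. When the cells of each run were split into tertiles (3 equal groups) by their number of positive genes, Irx6 was positive in 10.7% of cells in the lowest tertile, 32.9% in the middle one and 54.2% in the highest. The shares in the lowest and highest tertiles were 5.66% and 24.5% for Irx3, 6.29% and 21.9% for Irx4, 5.66% and 16.1% for Irx5, and 6.92% and 18.7% for Irx2. Most genes did the same. The background was 14872 genes positive in 2% to 90% of cells. Of these, 71.3% were at least 2 times as frequent in the highest tertile as in the lowest. A rise of 2 times thus says little about the members. The rise was larger than that of 91.3% of these genes for Irx6, 88.04% for Irx3 and 78.5% for Irx4. For Irx5 and Irx2 it was larger than that of 63.2% and 58.4% of them. Thinning each cell to 1000000 gene counts, which left out 7 shallower cells, gave 11.5%, 33.1% and 54.8% for Irx6. Because of this dependence, the numbers of cells expected for pairs of genes and for cell sets are also given from the shares within each run and tertile.

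**Figure D2:**
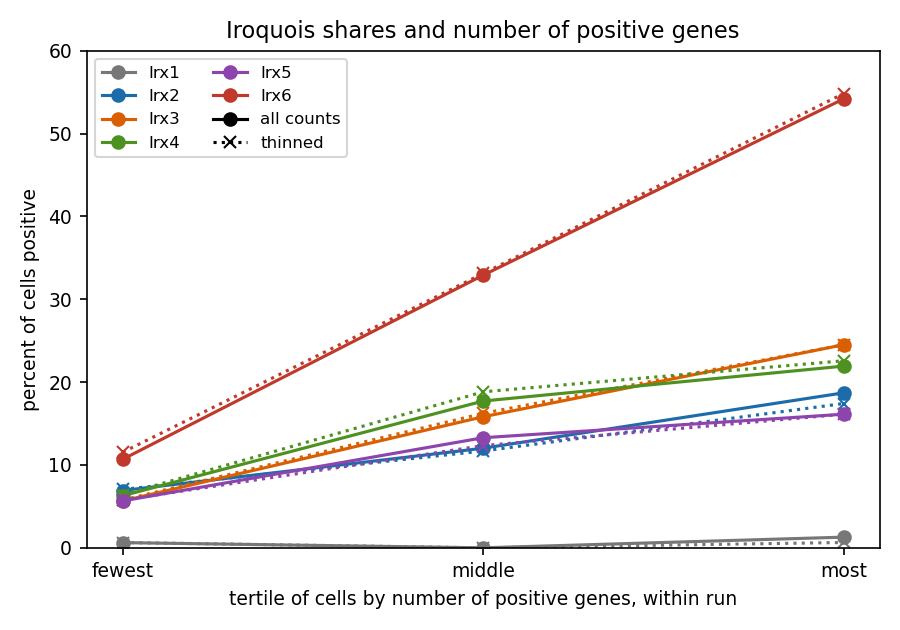
Percent of cells positive for each Iroquois gene (y axis) in tertiles of the cells ranked within run by number of positive genes (x axis), from all counts (circles, solid lines) and after thinning to 1000000 counts (crosses, dotted lines). Irx6 goes from 10.7% to 54.2%, and thinned and unthinned lines nearly coincide.

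About as many cells carried an Iroquois gene as carried none. At least 1 member was positive in 52.1% of cells (47.5% to 56.7%), at least 2 in 23.9% (20.2% to 28.1%), and at least 3 in 40 cells, or 8.47% (6.12% to 11.4%). Without run A the share with at least 1 was 49.2%. Exactly 4 members were positive in 13 cells and 5 in 1 cell. From independent shares 1.53 cells with 4 members were expected, and from the shares within run and tertile 3.07 were expected. No member was positive in 47.9% of cells. Cells with none had a median of 4591 positive genes and cells with 3 or more had 6411.

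Irx6 was the member most often found alone. In 67 of its cells, or 43.8%, no other member was positive. Irx2 was the sole member in 20 of its 59 cells (33.9%), Irx4 in 20 of 72 (27.8%), Irx5 in 13 of 55 (23.6%) and Irx3 in 12 of 72 (16.7%). Irx3 was thus the member most rarely alone. The most common pairs with nothing else were Irx4 with Irx6 in 16 cells, Irx3 with Irx6 in 13, and Irx2 with Irx6 and Irx5 with Irx6 in 11 each. Irx3, Irx5 and Irx6, the whole of the chromosome 8 cluster, met with no other member in 7 cells, and with Irx4 added in another 7.

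**Figure D3:**
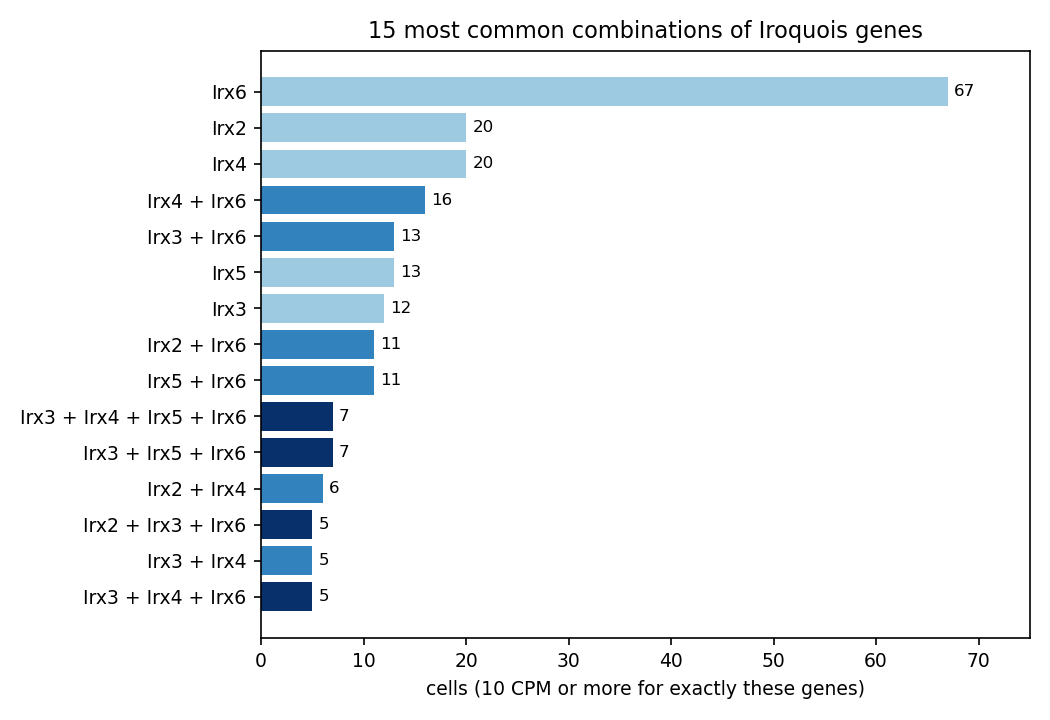
Number of cells (x axis) positive for exactly the genes named (y axis), for the 15 most common combinations, with darker bars for more genes. Irx6 alone leads with 67 cells, and the combinations of 3 or 4 genes shown all hold Irx3 and Irx6.

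Joint positivity of the members exceeded what independent shares give, and Irx3 with Irx5 stood at the top. Irx3 and Irx5 were both positive in 23 cells, against 8.39 expected from pooled shares and 10.3 within run and tertile, a ratio of 2.23 for the latter. Those 23 cells were 31.9% of the Irx3 cells and 41.8% of the Irx5 cells. Irx3 and Irx4, which lie on different chromosomes, met in 24 cells, against 10.98 expected from pooled shares and 13.5 within run and tertile, a ratio of 1.77. Irx2 and Irx3, also on different chromosomes, met in 16 cells against 9.00 and 10.3, a ratio of 1.56. The 2 pairs that Irx6 makes within its own cluster had smaller ratios, but the highest ratio possible is itself lower for a widespread gene. Irx6 was positive in 61.1% of the Irx3 cells and 56.4% of the Irx5 cells, against 32.4% of all cells. Irx3 and Irx6 met in 44 cells against 30.6 within run and tertile (ratio 1.44), and Irx5 and Irx6 in 31 against 21.3 (ratio 1.46). Irx4 and Irx6 met in 34 cells against 28.9, a ratio of 1.17. Irx2 stood closest to independence with Irx6 and Irx5. It met Irx6 in 25 cells against 23.2 (ratio 1.08), and Irx5 in 8 against 7.34 (ratio 1.09). Irx2 and Irx4, neighbours on chromosome 13, met in 14 cells against 10.1 (ratio 1.39), and Irx4 and Irx5 in 15 against 10.5 (ratio 1.43).

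Of the 10 pairs among the 5 common members, 7 reached 1.5 times the number expected from pooled shares and 3 reached it within run and tertile. All 3 of those hold Irx3, and the counting interval of Irx2 with Irx3 holds the number expected within run and tertile. The same ratio was worked out between each member and the 14871 other genes positive in 2% to 90% of cells. Irx3 reached it with 4 of 4 members from pooled shares, against 10.8% of those genes, and with 3 of 4 within run and tertile, against 4.05%. For Irx4 it was 3 of 4 against 12.3%, and 1 of 4 against 4.57% within run and tertile. For Irx5 it was 3 of 4 against 11.6%, and 1 of 4 against 5.84%. For Irx2 it was 2 of 4 against 11.5%, and 1 of 4 against 5.41%. For Irx6 it was 2 of 4 against 8% from pooled shares, and 0 of 4 against 1.12% within run and tertile. The highest ratio possible is lower for a widespread gene such as Irx6, so fewer genes can reach 1.5 with it. Its counts are thus not on the same scale as those of the other members.

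Irx3 and Irx5 met more often than expected from that run's own shares in 4 of 5 runs, with 10 cells against 4.03 in run A, 6 against 1.57 in B, 4 against 1.42 in C, 3 against 0.712 in D and 0 against 0.421 in E. Among the cells without 3 bipolar markers they met in 15 against 5.72. Their levels followed each other with Pearson r = 0.35 on log2(CPM + 1) over all cells, against 0.29 for Irx3 with Irx6, 0.26 for Irx3 with Irx4 and 0.21 for Irx5 with Irx6. Such r values only describe these cells: both genes of a pair come from the same library, with its depth and number of positive genes. For Irx2 with Irx5, r was 0.05. The part of the similar sequences in these values was not tested.

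**Figure D4:**
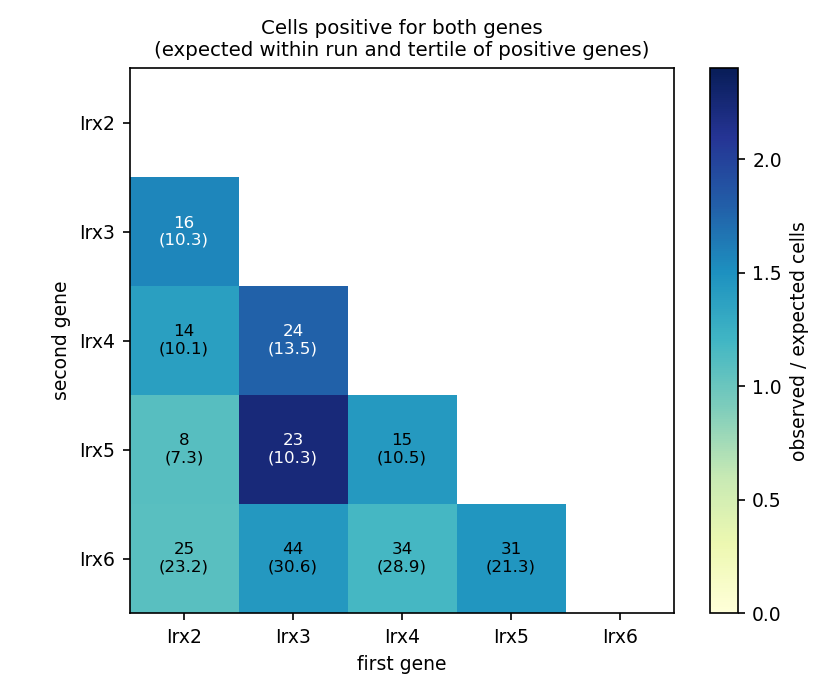
Cells positive for both genes of each pair, with the number expected within run and tertile in parentheses and the ratio as colour. The darkest square is Irx3 with Irx5, 23 cells against 10.3, and the lightest are Irx2 with Irx5 and Irx2 with Irx6.

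To see where the members sit among RGC classes, their shares were read in 15 sets of cells picked by other genes at 10 CPM, such as Opn4 (melanopsin, of intrinsically photosensitive RGCs), Eomes (Tbr2, a factor of the same cells), Spp1 with Kcng4 (alpha RGCs), Foxp2 (F-RGCs), Tbr1, Satb1 and Bnc2. Over 5 members and 15 sets, 12 of 75 shares were at least 2 times and 6 were at most 1/2 of the share outside the set. Over the same 15 sets pooled, 5.19% and 5.14% of the shares of background genes were. Within run and tertile, 8 of 75 were at least 1.5 times and 10 at most 1/1.5 of the number expected, against 4.66% and 8.2% of those of background genes. The threshold bears on these calls. With both the sets and the members read at 1 CPM, 8 of the 12 high shares stayed at 2 times or more and 0 of the 6 low shares stayed at 1/2 or less. With the members alone read at 1 CPM, 9 and 1 stayed. Sets overlap and the cells of a set share libraries, so these counts are not independent of each other.

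Melanopsin-positive cells carried more of the Irx3, Irx5 and Irx6 cluster at 10 CPM, while a lower share of Irx4 was not resolved. In 52 Opn4+ cells Irx6 was positive in 61.5% (47.02% to 74.7%), against 28.8% of the other cells. Irx3 was positive in 30.8% (18.7% to 45.1%) against 13.3%, and Irx5 in 21.2% (11.1% to 34.7%) against 10.5%. All 3 were at least 2 times as frequent inside the set, as were 6.62% of the background genes. Within run and tertile the 3 ratios were 1.58, 1.81 and 1.73, and 7.79% of genes reached 1.5. Irx4 went the other way, in 5 cells or 9.62% (3.20% to 21.03%) against 15.95%, a share that lies within this interval. Its ratio within run and tertile was 0.557, and 9% of genes fell as low as 1/1.5. With set and member at 1 CPM Irx4 was in 17.6% of the set, against 19.1% of all cells. The result for Irx3 rested on run A, where 13 of 25 Opn4+ cells carried it, and without run A its shares were 11.1% inside and 13.3% outside. The other calls were closer to the limit: without run A the ratio for Irx6 was 1.95, and for Irx5 it was 1.80 without run D and 1.97 without run E. With set and member at 1 CPM the ratio was 1.67 for Irx6 and 1.76 for Irx5. Opn4+ cells had more bipolar markers than the others, with 44.2% against 30.5% of cells at 3 or more, and among cells without them Irx3 was in 34.5% of Opn4+ cells and 14.04% of the others, Irx6 in 55.2% and 26.4%, and Irx5 in 13.8% and 10.96%. The result for Irx5 thus fell short of 2 times there, with a ratio of 1.26. The part of these markers in the result was not tested.

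Cells with Eomes, which overlapped the Opn4+ cells in 18 cells, gave a like picture for Irx3 and Irx5. Of 41 Eomes+ cells, 31.7% carried Irx3 (18.1% to 48.1%) against 13.7% outside, and 24.4% carried Irx5 (12.4% to 40.3%) against 10.4%. Background genes reached 2 times in 4.79% of cases. Within run and tertile the ratios were 1.97 for Irx3, 1.92 for Irx5 and 1.54 for Irx6, and 7.94% of genes reached 1.5. Without run D the share of Irx3 was 25.7% inside and 14.8% outside, a ratio of 1.74, and without run E the ratio for Irx5 was 1.97. With set and member at 1 CPM the ratio for Irx3 was 1.92. Eomes+ cells, too, had more bipolar markers, with 39.02% against 31.3% of cells at 3 or more. Among cells without them Irx3 was in 36% of Eomes+ cells and 14.2% of the others, and Irx5 in 4 of 25, or 16%, and 10.8%, a ratio of 1.48. The part of these markers was not tested. The rare member Irx1 also fell here: all 3 of its cells were Opn4+ and 2 of them were Eomes+ as well, which was noticed after the values were seen, and all 3 came from run A.

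Irx2 was more frequent in cells with the alpha RGC markers, and cells at 10 CPM or more were scarce in several other sets. Spp1+ Kcng4+ cells were 22.5% of all cells, and 24 of them carried Irx2, or 22.6% (15.1% to 31.8%), against 9.56% outside. This set takes 40.7% of the Irx2 cells, and 6.45% of genes were at least 2 times as frequent in it. Run A holds 82 cells of the set, and without it the shares were 16.7% and 8.88%. The set also had more positive genes, with a median of 6462.5 against 5365, and the ratio within run and tertile was 1.39. In 50 Col25a1+ Cdh6+ cells only 1 carried Irx2, or 2% (0.0506% to 10.6%), against 13.7% outside, and 5.03% of genes were as low as 1/2. The ratio within run and tertile was 0.145, and 9.85% of genes were at 1/1.5 or less, as was Irx5 at 0.650. The low share of Irx2 depends on the threshold: with set and member at 1 CPM it was 18.2% against 24.6%, and with the member alone at 1 CPM 14% against 24.9%. In Mmp9+ Htr1d+ cells, 23.3% of all cells, Irx2 was in 7.27% against 14.1%, with a ratio of 0.519 within run and tertile where 8.37% of genes fell as low as 1/1.5. At 1 CPM its share there was 19.05%, against 23.7% of all cells.

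Few Bnc2+ cells had Irx2 or Irx5 at 10 CPM or more, and the gap to the other cells was smaller at 1 CPM. Bnc2 encodes a zinc finger factor, and 23.1% of cells carried it. Irx5 was positive in 3 of them, or 2.75% (0.571% to 7.83%), against 14.3% outside, and Irx2 in 5, or 4.59% (1.51% to 10.4%), against 14.9%. Genes at 1/2 or less in this set made up 3.92% of the background. Within run and tertile the ratios were 0.222 for Irx5, 0.333 for Irx2 and 0.564 for Irx3, with 7.26% of genes at 1/1.5 or less. Irx6 was in 31.2% of Bnc2+ cells, near its share in all cells, and Bnc2+ cells had a median of 5994 positive genes against 5430 outside. With set and member at 1 CPM, Irx5 was in 16.03% of the set against 18.2% outside and Irx2 in 15.3% against 26.98%. With the members alone at 1 CPM the shares were 11.01% and 19.6% for Irx5 and 10.1% and 27.8% for Irx2. In none of the 5 runs was Irx2 or Irx5 at 10 CPM more frequent inside the set. Runs A to E hold 65, 22, 16, 4 and 2 cells of the set, so D and E say little here. Without the cells with 3 or more bipolar markers Irx2 was in 2.74% against 16.5%. The fold for Irx5 depends on a few cells: without run A its share was 4.55% inside and 15.5% outside, and without run C it was 1.08% and 13.6%.

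Irx5 at 10 CPM was infrequent in cells with Tbr1 or Foxp2, T-box and forkhead factors of other RGC classes, and at 1 CPM this was smaller, gone or turned around. At 10 CPM it was positive in 5 of 79 Tbr1+ cells, or 6.33% (2.09% to 14.2%), against 12.7% outside, and in 2 of 36 Foxp2+ cells, or 5.56% (0.680% to 18.7%), against 12.2%. With set and member at 1 CPM the shares were 17.7% and 17.5% for Tbr1+ cells, and for Foxp2+ cells 22.6% and 16.9%, the opposite order. With Irx5 alone at 1 CPM they were 12.7% and 18.6% for Tbr1+ and 13.9% and 17.9% for Foxp2+ cells. Background genes at 1/2 or less made up 5.9% for Tbr1+ and 9.64% for Foxp2+ cells. Within run and tertile the ratios of Irx5 were 0.504 and 0.406, where 10.6% and 16.3% of genes were at 1/1.5 or less, and Irx3 in Foxp2+ cells was at 0.507. The Tbr1+ result rested on run A, since without it the shares were 13.3% and 13.5%, and without run E they were 3.95% and 12.7%, while without run D the ratio was 0.547. Among cells without 3 bipolar markers 1 of 54 Tbr1+ cells carried Irx5, or 1.85%, against 13.1%. The ratio for Foxp2+ cells was 0.544 without run A and 0.519 without run E. Irx2 in Foxp2+ cells was at 19.4% against 11.9%, a ratio of 1.5 within run and tertile that 6.96% of genes reached.

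Irx4 and Irx6 were more frequent in sets that also held more positive genes. Irx4 was in 23.9% of Satb1+ cells (18.1% to 30.4%) against 9.09% outside, where 4.65% of genes were at least 2 times as frequent. Satb1 encodes a chromatin organizer found in several direction-selective RGCs. Irx6 was in 49.7% of Tfap2d+ cells (41.8% to 57.6%) against 23.1%, where 3.66% of genes were. In Hpcal4+ Kctd8+ cells Irx3, Irx4, Irx5 and Irx6 were in 28.6%, 29.5%, 20.95% and 59.05%, against 11.4%, 11.2%, 8.99% and 24.8% outside, and 9.88% of genes were at least 2 times as frequent. Within run and tertile all these ratios were below 1.5, at 1.40 for Irx4 in Satb1+ cells, 1.30 for Irx6 in Tfap2d+ cells and 1.32 to 1.38 in Hpcal4+ Kctd8+ cells. Hpcal4+ Kctd8+ cells had a median of 6535 positive genes against 5137, and 48.6% against 27.2% had 3 or more bipolar markers. The 87 cells without Pou4f1, the Brn3a factor of most RGCs, had fewer positive genes, 4137 against 5773, and Irx4 was in 8.05% of them against 16.9%. In that set 15.1% of genes were at 1/2 or less, and the ratio for Irx4 was 0.589 without run B, 0.638 without run D and 0.531 with set and member at 1 CPM. The ratio for Irx6 in Hpcal4+ Kctd8+ cells was 1.80 at 1 CPM. In the cells without Pou4f1, Irx3 was in 17.2% against 14.8% of the others. Its ratio there was 1.51 within run and tertile, which 6.21% of genes reached.

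**Figure D5:**
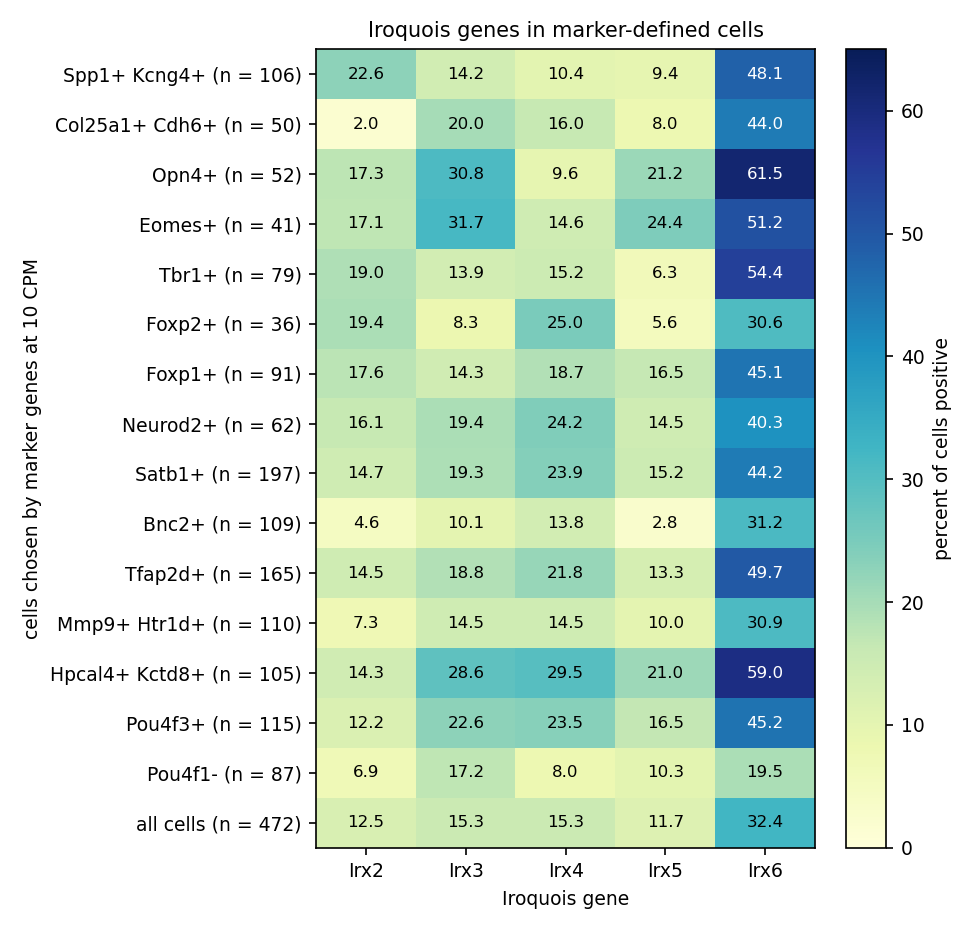
Percent of cells positive for each common Iroquois gene (columns) in 15 sets of cells picked by other genes at 10 CPM (rows, with the number of cells) and in all cells. Irx6 is highest in Opn4+ cells at 61.5%, and the lowest squares are Irx2 in Col25a1+ Cdh6+ cells and Irx5 in Bnc2+ cells.

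Because Irx5 and Irx6 are known from bipolar cells, the shares were set beside markers of bipolar and other retinal cells. Among the cells with 3 or more of 8 bipolar markers, Irx6 was positive in 39.7% (31.9% to 48.01%) against 28.97% of the other cells, and after thinning in 40% against 29.8%. Irx5 was in 12.6% against 11.2%, Irx4 in 17.9% against 14.02%, Irx3 in 13.9% against 15.9%, Irx2 in 10.6% against 13.4%, and Irx1 in none of them, which allows up to 1.99%, against 0.935%. None of the 6 reached 2 times the share outside, which 10.3% of genes did. The summed level of the 8 markers had a median of 89.9 CPM in Irx6-positive cells, over a range of 0 to 2540, and 47.5 CPM in the rest, over 0 to 2191. The defining marker Vsx1 of OFF and some ON cone bipolar cells was in 4.58% of Irx6-positive and 3.45% of Irx6-negative cells. None of the 8 bipolar markers was positive in 35 Irx6-positive cells, or 22.9% of them, against 34.2% of the Irx6-negative cells.

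Amacrine markers moved with Irx6 and Irx4 somewhat more. In the 26.7% of cells with 3 or more of 8 amacrine markers, Irx6 was in 48.4% (39.4% to 57.5%) against 26.6%, and Irx4 in 23.8% (16.7% to 32.2%) against 12.1%. Those cells had more positive genes, with a median of 6439.5 against 5165.5. Neither member reached 2 times, as 13.4% of genes did, and the part of these markers in the shares was not tested. No common member reached 2 times in cells with rod markers, where 9.08% of genes did, with cone markers (14.4%), Müller glia markers (12.4%) or astrocyte markers (18.9%). The astrocyte set has only 6 cells, and its shares are poorly resolved, as with Irx2 in 1 of them (0.421% to 64.1%). With microglial markers there were only 11 cells, and Irx2, Irx4 and Irx5, in 3, 4 and 3 of them, were past 2 times, as were 13.5% of genes. No cell had 3 or more vessel markers.

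The genes whose levels followed a member most closely across cells were ranked by r among 12563 genes positive in 5% to 90% of cells. Irx6 had the strongest partners, led by Sema3a (r = 0.44), which encodes a secreted axon guidance cue. Next were Rpp25 (0.36), a subunit of ribonuclease P, and Gipr (0.35), the receptor of a gut incretin hormone. Without the cells with 3 or more bipolar markers Sema3a stayed at rank 1, while Rpp25 fell to 34 and Gipr to 8. The partners named were picked by r in these same cells, so the shared cells counted here and below are no separate support. Irx6 and Sema3a were both positive in 80 cells, against 52.9 expected within run and tertile. These were 52.3% of the Irx6 cells and 62.02% of the Sema3a cells. From each run's own shares, without tertiles, Irx6 and Sema3a met more often than expected in all 5 runs. In run E this was 2 cells against 1.47. Of the 33 Gipr+ cells, 26 carried Irx6, against 14.4 expected within run and tertile, and 13 carried Irx5, against 4.61. In all, r reached 0.3 with Irx6 for 22 genes, or 0.175% of those ranked. The other members had few such partners: 3 genes for Irx3 (0.0239%), 1 each for Irx4 and Irx5 (0.00796% each) and none for Irx2 (0%).

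Irx3 and Irx5 were each other's closest gene among all those ranked, at r = 0.35. After Irx5, Irx3 was most like Crnde (0.34), a long noncoding RNA gene, and Dgkg (0.30), a diacylglycerol kinase. For Irx5 the next were Ppp1r1a (0.29), an inhibitor of protein phosphatase 1, and Gipr (0.27). Leaving out the cells with 3 or more bipolar markers put Crnde at rank 4 for Irx3 and Ppp1r1a at 7 for Irx5. Dgkg for Irx3 and Gipr for Irx5 were then at rank 3. Irx4 was most like Ppp1r17 (0.30), another phosphatase inhibitor, Tmod1 (0.30), which caps actin filaments, and C530008M17Rik (0.28). The same omission put Ppp1r17 at rank 1, Tmod1 at 3 and C530008M17Rik at 10. Irx4 and Ppp1r17 met in 24 cells against 14.1 expected within run and tertile, and Irx4 and Tmod1 in 22 against 11.96. An excess of this kind is built into the choice by r. Irx2 was most like Clec2l (0.28), Map7d2 (0.25), a microtubule-binding protein, and Ank1 (0.25), a membrane skeleton adaptor. These are positive in most cells, so that 57 of the 59 Irx2 cells carried Clec2l, against 49.3 expected.

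The nearest genes on the chromosome were looked at because counts of overlapping genes may mix, and no source used here gives the strand setting of the counting. Crnde lies 1.505 kb from Irx5 on the opposite strand, without shared exon bases, and was positive in 46 cells. It met Irx5 in 13 cells against 6.61 expected within run and tertile, and met Irx3, which lies farther away, in 21 against 9.51. Crnde had also been picked by its r with Irx3. Irx3 shares exon bases with the antisense gene Irx3os, which was positive in 5 cells, 3 of them with Irx3, and without strand the reads of these genes cannot be told apart. Irx6 shares exon bases with Gm45505, which was positive in 0 cells. Fto, 130 kb from Irx3 and known for variants that act on Irx3 at a distance, was positive in 83.5% of cells and met Irx3 in 68, against 67.4 expected within run and tertile. Lpcat2, 174.4 kb from Irx6, met Irx6 in 50 cells against 36.03. On chromosome 13, Ndufs6 and Mrpl36, the nearest coding genes to Irx4, met it in 65 cells against 67.3 and 49 against 45.2. Irx2 has a single positive gene within 500 kb, Gm20554 in 5 cells, and Irx1 has none.

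The other TALE factors, possible partners on DNA, were in part far more widespread. Meis3 was positive in 64.2% of cells, Meis2 in 59.1% and Meis1 in 47.7%. Pbx4, Pbx3 and Pknox1 were each in 24.4% to 25.6%, Pknox2 in 13.8% and Pbx2 in 12.5%. Mkx, the gene closest to the Iroquois family, was in 8.47%, Tgif2 in 1.48% and Tgif1 in 1.27%. Irx6 thus ranks between Meis1 and Pbx4, and Irx3 and Irx4 stand near Pknox2. For the 45 pairs of a common Iroquois gene with a TALE gene positive in at least 10% of cells, ratios within run and tertile ran from 0.600 to 1.44 with a median of 1.002, and 0 reached 1.5.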

How the data were processed

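Values were deposited as estimated counts, which the authors obtained for 55450 genes and 92 spike-in RNAs in each cell. The submitters' processing notes name STAR 2.7.0 and the mm10 build, while counting tool and strand setting are not given in the sources used. The estimated counts were rounded and expressed per 1000000 gene counts of the cell (CPM), spike-ins excluded, and 10 CPM or more counts as positive. Runs A, D and E are told apart by flow cell and B and C by order number in the library names. Positions, exon lengths and transcripts came from GENCODE mouse release 21, which holds all 55450 identifiers. Intervals of shares are exact 95% binomial ones (Clopper-Pearson), and for a share of 0 the upper limit is 3 counts. They cover counting error only, and amplified reads are not independent molecules. The number of cells expected for a pair is the product of the shares, pooled or summed over runs and tertiles of positive genes.

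All cells form 1 sample, so no test was run and no p-value computed. No doublet caller was run, since cells were patched singly. The members, gene lists and cell sets were chosen with earlier results of these data known. Named are the members, the other TALE and class factors, the genes that define sets, up to 4 markers per list, genes within 500 kb, and the 3 genes with highest r to each member positive in at least 20 cells. Some genes that this rule allows are not reported here. Software was Python 3.11.15 with pandas 2.3.3, scipy 1.17.1, numpy 2.4.6, Biopython 1.88 and matplotlib 3.10.9. Alternatives changed the threshold, depth, cells, runs, scaling, rounding and pseudocount.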

Additional observations from a re-analysis of the deposited data

Results flagged for a closer look

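The ERCC spike-in RNAs, which were left out of the CPM totals, took a median of 0.738% of all counts per cell, over a range of 0.0158% to 31.1%. They stand outside the comparisons above and there is no cell without them to serve as a control. The median was 1.09% in cells with no Iroquois gene positive and 0.571% in cells with at least 1.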

How the results depend on the processing

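Of the recomputed values for the shares over all cells and in cells with bipolar markers, the counts of pairs and sets and the ranked genes, 22 left the counting interval of the value reported or 1.5 times its count. Of the 75 shares in cell sets, 35 left their interval at 1 CPM, and 0 after thinning or among cells with 1000 positive genes. At 1 CPM the shares were 2.33% for Irx1, 23.7% for Irx2, 21.4% for Irx3, 19.1% for Irx4, 17.6% for Irx5 and 41.5% for Irx6, with at least 1 member in 63.6% and at least 2 in 35.2% of cells. In cells with 3 or more bipolar markers they were 22.97% for Irx2, 23.9% for Irx3 and 21.2% for Irx5. At 100 CPM the shares were 0.847% for Irx2, 1.69% for Irx3, 2.97% for Irx4, 1.06% for Irx5 and 9.11% for Irx6, with at least 1 member in 15.5% and at least 2 in 0.424%. No pair ratio was computed at 100 CPM, where under 2 cells were expected for each pair. Without run A the share of Irx1 was 0%, from 0 cells. Irx2 and Irx5 fell below the expected number in 2 cases, with a pooled ratio of 0.94 after thinning and 0.97 without run A, and the cause was not tested. Of the 15 genes ranked as most alike, 9 stayed among the top 3 without the cells with bipolar markers, an alternative added after seeing the data. So was leaving out each run for the cell sets, where 13 to 18 of the 18 shares stayed past 2 times or 1/2. Also counted after seeing the data, 8 of the 18 stayed at 1 CPM for set and member, among them 0 of the 6 low ones, 10 at 1 CPM for the member alone, and 16 without cells with bipolar markers. Leaving out each run in turn gave 29.4% to 33.4% for Irx6, and 2.49 to 3.12 for the pooled ratio of Irx3 and Irx5. The number of cells limits the precision for Irx1, with 3 positive cells, and for the 41 Eomes+ and 36 Foxp2+ cells, whose shares stayed within their intervals after thinning. No paired analysis was possible because all cells belong to 1 group.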
